A study of Mus musculus with 13 samples.

Results

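A group of 9 genes of extracellular NAD and purine handling were followed in mature CD4 thymocytes that had been selected with or without cathepsin L in the thymic epithelium. They were *Art2b*, *Cd38*, *P2rx7*, *P2rx4*, *Entpd1*, *Nt5e*, *Adora2a*, *Ada* and *Pnp*, 9 of the 35906 genes to which the deposited transcripts were summed. The list is named by gene and was drawn up with measured values of these libraries in view, so the levels and differences of its 9 members are given as a description, without p-values. How many lay past the threshold of the fit over all genes (adjusted p under 0.1) is stated beside the share or count of all genes that did. All mice are labelled as carrying the Lm54 TCR transgene on a Rag1-/- background, a design in which the sorted cells should share 1 receptor. In CtslΔTEC mice a Foxn1-cre transgene deletes *Ctsl* in thymic epithelial cells, and the control mice are labelled Ctsl fl/fl (WT). RNA was taken from M2 CD4 single-positive thymocytes, sorted as CD69- MHCI+ (CD4+ without surface CD8). This gate is meant to leave out CD4+CD8+ double-positive cells and CD4-negative myeloid cells. The study reports its sorted populations as mostly, not fully, pure. The cells were used either directly (5 CtslΔTEC and 4 control mice) or after 4 h with plate-bound LLO:Iab monomer at 1 µg/ml and soluble anti-CD28 at 250 ng/ml (2 CtslΔTEC and 2 control mice). Each library came from 1 young adult mouse.

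In this pathway, ATP and NAD outside the cell act on T cells along separate arms. ART2 enzymes, anchored to the surface of mouse T cells, use NAD to ADP-ribosylate surface proteins, among them the ATP-gated channel P2X7, which then opens without ATP. CD38 consumes NAD and so competes for the substrate. CD39 (encoded by *Entpd1*) and CD73 (*Nt5e*) strip ATP to adenosine, which signals through the receptor encoded by *Adora2a* and is broken down by adenosine deaminase (*Ada*) and purine nucleoside phosphorylase (*Pnp*). ART2 and P2X7 are known for a part in NAD-induced death of resting T cells.

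The members lie apart in the genome except for a pair. In the GENCODE M21 annotation of GRCm38, *Art2b* occupies chr7:101576970-101585600 on the minus strand, upstream of its near copy *Art2a-ps* at chr7:101552453-101560865 on the same strand. *P2rx7* (chr5:122643911-122691432) and *P2rx4* (chr5:122707544-122729738) are neighbours on the plus strand. The files hold 2 transcripts of *Art2b*, both coding, whose coding sequences differ in the annotation by 9 bases kept or skipped at a junction of coding exons. Art2b-201 is annotated from start to stop codon only, at chr7:101578860-101581161, while Art2b-202 has untranslated ends as well and spans the gene, so reads can be split between them on more than those bases. The 9 bases, at chr7:101579904-101579912, are in capitals in the first of the lines that follow, which show the junction in both transcripts.
Art2b-201: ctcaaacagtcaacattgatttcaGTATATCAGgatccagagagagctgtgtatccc
Art2b-202: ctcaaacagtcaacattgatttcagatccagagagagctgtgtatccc
The coding sequence is 867 bases long in Art2b-201 and 858 bases in Art2b-202.

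Reads of *Art2b* could in principle have come from *Art2a-ps*. Of the 2807 sequences of 31 bases that *Art2b* transcripts hold, 8.73% also occur in *Art2a-ps*, and the aligned coding sequence is 87.6% identical. A window of 60 coding bases with 6 differences, in capitals, shows how the copies are told apart.
Art2b: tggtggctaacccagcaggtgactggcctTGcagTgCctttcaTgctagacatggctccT
Art2a-ps: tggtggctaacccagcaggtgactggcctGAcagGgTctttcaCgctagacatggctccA
The authors' quantification assigned at most 2 counts per library to *Art2a-ps*. *Pnp* is less certain, since 26.4% of its sequences of 31 bases occur in other genes, 17.5% in *Gm49342* and 15.1% in the paralog *Pnp2*, whose locus overlaps its own.

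*P2rx7* transcripts start at either of 2 first exons with different coding sequence. The first coding exon of P2rx7-203 lies at chr5:122644074-122644198 and that of P2rx7-208 at chr5:122650424-122650539. The second is that of the P2X7 k variant of mouse T cells, which is known to be more sensitive to ADP-ribosylation. Both exons are printed with the start codon in capitals, because their shares are compared between genotypes.
P2rx7-203: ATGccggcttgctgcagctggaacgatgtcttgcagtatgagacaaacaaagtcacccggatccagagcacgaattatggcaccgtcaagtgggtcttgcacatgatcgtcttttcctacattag
P2rx7-208: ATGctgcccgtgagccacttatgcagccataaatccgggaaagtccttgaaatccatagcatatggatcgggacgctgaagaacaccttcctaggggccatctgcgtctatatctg
Aligned end to end, the exons matched at 52.7% of positions.

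The libraries held 25692380 to 39127833 estimated counts in unstimulated and 8085463 to 27184520 in stimulated cells. T cell markers summed to between 4172 and 4699 CPM (counts scaled per library, after TMM normalization) in unstimulated libraries, whereas 5 B cell markers summed to at most 1.54 CPM. *Ctsl* in thymocytes does not check the deletion, which is in epithelium, and stood at 11.4 to 17.9 CPM in CtslΔTEC and 6.31 to 8.84 CPM in control libraries before stimulation. A set of 7 markers of CD4+CD8+ double-positive (DP) precursors summed to 221 to 292 CPM in unstimulated CtslΔTEC libraries and 51.7 to 75.2 CPM in controls, without overlap and with none of the 7 at 3 counts or fewer throughout a group. *Rag1*, 1 of the 7, was at 4.51 to 26.5 CPM in CtslΔTEC and 2.78 to 5.13 CPM in control libraries, although the mice are labelled Rag1-/-. Whether these counts come from the targeted allele was not tested. A set of 5 markers of mature CD4 cells was lower in CtslΔTEC libraries, at 2033 to 2392 CPM against 3024 to 3422 CPM. Summed markers of regulatory T cells (43.9 to 47.9 against 32.5 to 43.4 CPM) and thymic epithelium (3.39 to 5.15 against 2.53 to 3.16 CPM) were higher there. Within the regulatory T set *Il2ra* was higher (6.52 to 12.9 against 2.01 to 2.61 CPM) and *Ikzf2* lower (2.91 to 4.21 against 4.83 to 6.93 CPM). Transcripts of Y-linked genes were high in all 5 unstimulated CtslΔTEC libraries and in 1 of 4 control libraries, that of mouse 3, and in 1 of 2 stimulated libraries of each genotype. The deposited files are dated without saying what the date marks, and the dates place unstimulated CtslΔTEC mice 1 and 3 with control mouse 4, CtslΔTEC mice 2, 4 and 5 with control mice 1 to 3, and all stimulated mice on a separate date, so that date, time in culture and stimulation cannot be told apart. In bulk RNA, fewer cells that express a gene and less RNA per cell cannot be told apart either.

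*Art2b*, the only ADP-ribosyltransferase among the members, was higher in every unstimulated CtslΔTEC library than in any control. The counts in CtslΔTEC mice 1 to 5 were 546, 2239, 555, 659 and 2697. In control mice 1 to 4 they were 150, 240, 104 and 91. Mice 2 and 5 stood above the other CtslΔTEC mice, and the groups did not overlap. The mean was 37.3 ± 26.5 CPM (SD, n = 5) in CtslΔTEC and 4.79 ± 2.54 CPM (SD, n = 4) in control cells, a fitted difference of 2.98 ± 0.55 on the log2 scale (SE; 7.87-fold). Control mouse 3, the control with high Y-linked transcripts, held 104 *Art2b* counts and lay among the other controls. With Y-linked transcripts as a covariate the fitted difference was 3.18, no longer past the threshold, in a fit that called 430 of 13152 genes against 1943 without the covariate. The part of the Y-linked imbalance in the difference was not tested further. Within the date of mice 1 and 3 the CtslΔTEC mean was 6.82 times the value of the 1 control library, and within the date of mice 2, 4 and 5 it was 9.15 times the control mean. Leaving out CtslΔTEC mice 2 and 5, an alternative chosen after seeing the data, gave a log2 difference of 1.93. The 6 myeloid markers summed to 11.02 to 14.5 CPM in CtslΔTEC and 10.7 to 17.7 CPM in control libraries, which overlap, but single markers went either way. *Itgam* was lower in CtslΔTEC libraries, at 5.28 to 6.63 CPM against 7.69 to 12.3 CPM, and *Csf1r* was at 0.303, 1.25, 0.744, 0.899 and 1.40 CPM in CtslΔTEC mice 1 to 5 against 0.194 to 0.491 CPM in controls, overlapping through mouse 1. The part of the DP, mature CD4, regulatory T, thymic epithelial and myeloid marker levels in the *Art2b* difference was not tested.

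**Figure D1:**
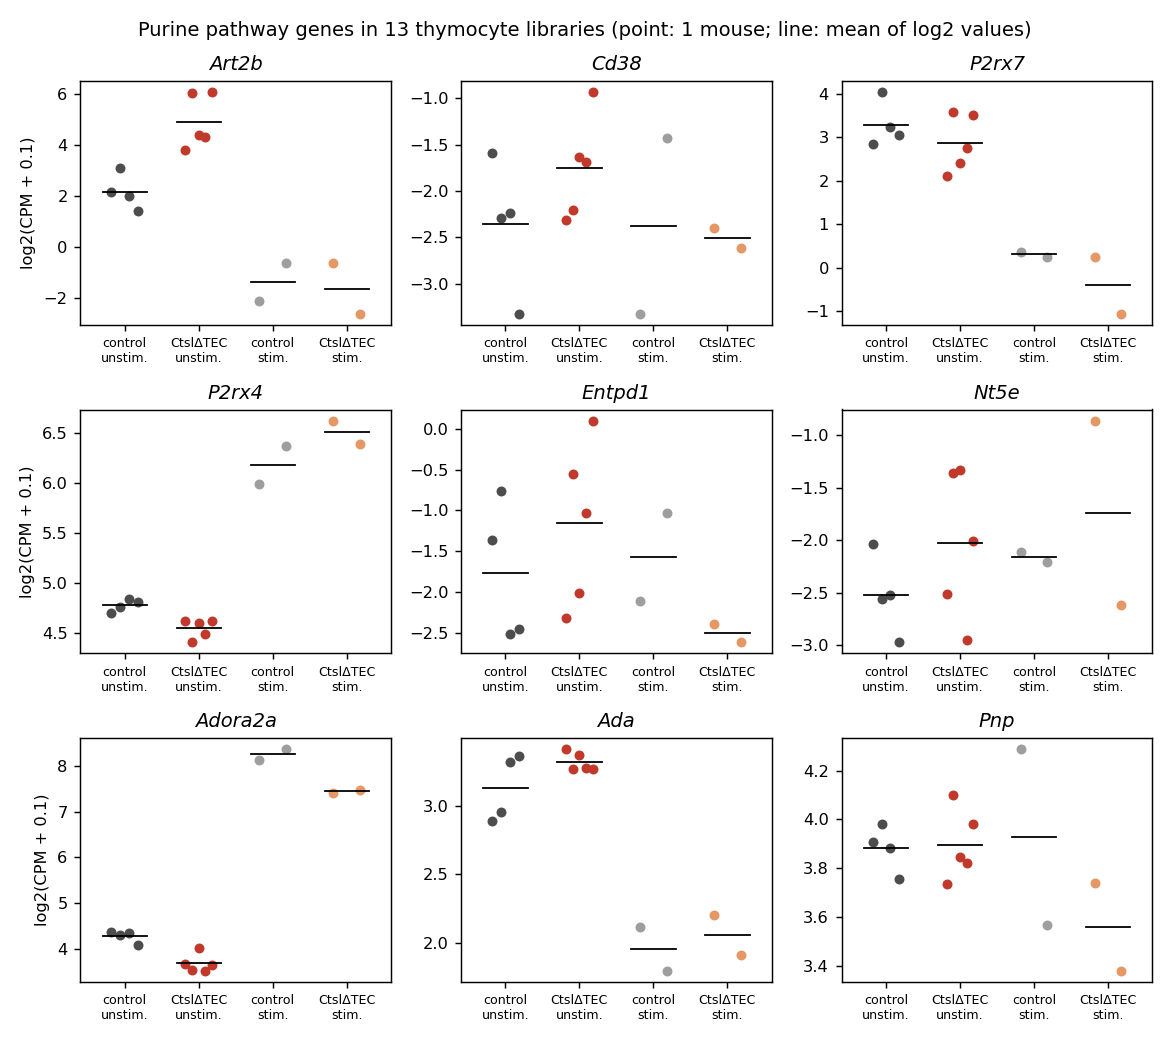
Levels of the 9 members in each library, as log2(CPM + 0.1) on the vertical axis, with 1 point per mouse and a line at the mean of each group of genotype and stimulation. *Art2b* separates the unstimulated genotypes, with 546 to 2697 counts in CtslΔTEC and 91 to 240 in control libraries, and is near the floor in all 4 stimulated libraries, while vertical ranges differ between panels.

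On a scale per transcript length, *Art2b* was among the lower members in control cells and exceeded *P2rx4*, the highest member there, in 2 of 5 CtslΔTEC mice. In unstimulated control cells the mean levels in TPM, which scales by transcript length, were 32.6 ± 2.77 for *P2rx4*, 14.98 ± 1.22 for *Pnp*, 14.7 ± 2.35 for *Adora2a*, 7.97 ± 1.32 for *Ada*, 4.72 ± 1.98 for *P2rx7* and 4.07 ± 2.33 for *Art2b* (SD, n = 4). Of neighbours in this order, *P2rx4* and *Pnp* did not overlap, nor did *Adora2a* and *Ada*, and the other pairs did. In unstimulated CtslΔTEC cells *Art2b* reached 32.6 ± 22.6 TPM, beside 30.96 ± 4.08 TPM for *P2rx4*, with overlapping values (SD, n = 5). The *Art2b* level was 57.7 and 56.8 TPM in mice 2 and 5 and 11.5, 18.8 and 18.4 TPM in mice 1, 3 and 4, where *P2rx4* stood higher at 31.3, 37.5 and 30.1 TPM. *Entpd1*, *Cd38* and *Nt5e* came last in both genotypes, with group means of at most 1.82 TPM.

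After stimulation *Art2b* was almost undetectable in both genotypes. Stimulated CtslΔTEC mice 6 and 7 held 6 counts and 1 count, and stimulated control mice 5 and 6 held 1 count and 14 counts. As a share of the summed library totals of a group, this was 0.244 CPM in CtslΔTEC (exact 95% Poisson interval 0.0982 to 0.503) and 0.425 in control cells (0.238 to 0.702), intervals that cover counting error only. The intervals overlapped, and a genotype difference was not detectable at this depth. The fitted difference was -0.72 ± 1.99 on the log2 scale (SE), and turned to 0.96 without control mouse 6 and to 0.29 without CtslΔTEC mouse 7. The fitted response to stimulation was -3.43 ± 1.07 in control and -7.12 ± 1.11 in CtslΔTEC cells (log2, SE), values that depend on the prior count where libraries hold 1 count. Without control mouse 6 the control response was -5.14, and without CtslΔTEC mouse 6 the CtslΔTEC response was -9.13. The difference between the responses was -3.70 ± 2.03 (log2, SE).

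Both *Art2b* transcripts contributed in similar parts. Art2b-201, with the 9 extra bases, took 53.3 ± 3.45% of *Art2b* TPM in CtslΔTEC (SD, n = 5) and 51.9 ± 13.4% in control cells (SD, n = 4). The share in control mouse 1 was the lowest at 32.6%, and the other controls lay between 53.6% and 62.8%. The genotypes differed by 1.46 percentage points, which the two-sided exact permutation test over all groupings of the mice did not separate (p = 0.889, adjusted p = 0.941 over 18 transcripts).

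*Cd38*, the NAD-consuming ectoenzyme, was close to the limit of detection. It held 4, 4, 6, 7 and 17 counts in CtslΔTEC mice 1 to 5 and 8, 3, 3 and 0 counts in control mice 1 to 4. Stimulated CtslΔTEC libraries held 1 count each, and stimulated controls held 0 and 7 counts. The genotypes overlapped before and after stimulation, and the gene failed the filter on low counts. In CtslΔTEC mice both stimulated libraries lay below all unstimulated ones, and a count of 0 allows up to 3 counts.

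*P2rx7*, the ATP-gated channel and ART2 target, did not separate the unstimulated genotypes. The counts were 168, 408, 139, 221 and 453 in CtslΔTEC mice 1 to 5. In control mice 1 to 4 they were 243, 467, 252 and 295. CtslΔTEC mice 2 and 5 and control mouse 2, which had the highest *Art2b* of their genotypes, were also highest in *P2rx7*. The means were 7.84 ± 3.53 CPM (SD, n = 5) and 10.2 ± 4.19 CPM (SD, n = 4), with overlapping values and a fitted log2 difference of -0.38 ± 0.33 (SE). Leaving out 1 mouse at a time moved this difference between -0.57 and -0.06, the latter without control mouse 2. It was -0.58 with the replicate number as a block and -0.93 without CtslΔTEC mice 2 and 5, which were also the highest of their genotype in *P2rx7*. The quotient of *Art2b* to *P2rx7* CPM was 2.98 to 5.95 in the 5 CtslΔTEC libraries and 0.309 to 0.617 in the 4 control libraries.

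Stimulated cells held little *P2rx7* in either genotype. The counts were 12 and 6 in CtslΔTEC mice 6 and 7, and 9 and 28 in control mice 5 and 6. All stimulated libraries lay below all unstimulated ones. The fitted responses were -3.18 ± 0.57 in control and -3.51 ± 0.61 in CtslΔTEC cells (log2, SE), and they differed by -0.33 ± 0.85, within the error.

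The 2 first exons of *P2rx7* were used in similar proportions. P2rx7-203, with the upstream exon printed in the first of the *P2rx7* lines, took 38.5 ± 6.49% of *P2rx7* TPM in CtslΔTEC (SD, n = 5) and 42.4 ± 9.71% in control cells (SD, n = 4; exact permutation p = 0.460, adjusted p = 0.881). P2rx7-208, with the k exon, took 28.8 ± 8.70% and 30.2 ± 7.95% (exact permutation p = 0.825, adjusted p = 0.941). The noncoding transcript P2rx7-206 had shares of 21.8, 1.48, 14.3, 15.6 and 13.1% in CtslΔTEC mice 1 to 5 and was listed at 0 in all 4 controls (exact permutation p = 0.0159, adjusted p = 0.286). Those shares rest on at most 4.71 estimated counts per library. None of 18 transcripts of 5 members passed an adjusted p of 0.1 in the exact permutation test, and 1 had an unadjusted p under 0.05. With 5 mice against 4 the smallest possible p is 0.00794, which adjusts to 0.143 for a lone transcript among 18, so a single transcript could not have passed.

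**Figure D2:**
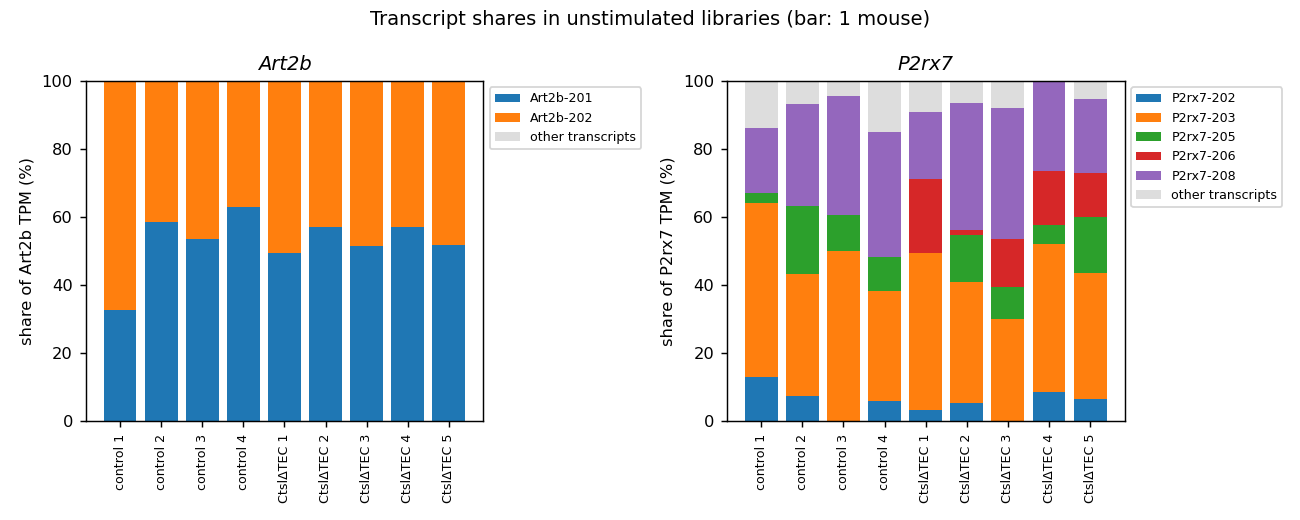
Shares of *Art2b* and *P2rx7* TPM by transcript in the 9 unstimulated libraries, with 1 bar per mouse, the share in percent on the vertical axis and transcripts that were not tested in grey. Art2b-201 averaged 53.3% in CtslΔTEC and 51.9% in control mice, and P2rx7-206 appeared in CtslΔTEC mice only, on at most 4.71 estimated counts.

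*P2rx4*, a related ATP-gated channel encoded beside *P2rx7*, was slightly lower in unstimulated CtslΔTEC cells. Its level was 24.6, 21.1, 24.2, 22.3 and 24.5 CPM in CtslΔTEC mice 1 to 5, and 25.8, 27.1, 28.6 and 28.0 CPM in control mice 1 to 4. The groups did not overlap, and the fitted difference was -0.23 ± 0.07 on the log2 scale (SE; 1.17-fold lower). Over 21 alternatives the difference ranged from -0.28 to -0.13, the latter with an offset for effective length, and per length the groups overlapped (26.3 to 37.5 TPM in CtslΔTEC and 30.4 to 36.3 TPM in control cells). After stimulation the order was the other way, with 98.3 and 83.8 CPM in CtslΔTEC and 63.5 and 82.4 CPM in control cells. Here CtslΔTEC mouse 7 and control mouse 6 lay close together. The stimulated difference was 0.31 ± 0.13 (log2, SE), and 0.13 without control mouse 5. *P2rx4* was higher after stimulation by 1.42 ± 0.11 in control and 1.96 ± 0.10 in CtslΔTEC cells (log2, SE). The difference between these responses was 0.54 ± 0.16 and ranged from 0.36, without control mouse 5, to 0.74, without control mouse 6.

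The ectonucleotidase genes were barely detected. *Entpd1* held 4, 20, 4, 13 and 39 counts in CtslΔTEC mice 1 to 5 and 10, 14, 2 and 3 counts in control mice 1 to 4. Mice 2 and 5 were again the highest, and the genotypes overlapped (fitted log2 difference 0.94 ± 0.69, SE). With an offset for effective length the difference was -0.03, and the mean level per length was 1.40 TPM in CtslΔTEC and 1.82 TPM in control cells, so its direction depends on the scale. Stimulated CtslΔTEC libraries held 1 count each and stimulated controls 1 count and 10 counts. Over all libraries 31.3% of *Entpd1* counts lay on 1 noncoding transcript. *Nt5e* held 1 to 10 counts per library in unstimulated and 1 to 5 in stimulated cells and was not tested. All its counts lay on the retained-intron transcripts Nt5e-202 and Nt5e-203, and its coding transcript Nt5e-201 was listed at 0 in each of the 13 libraries.

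*Adora2a*, which encodes an adenosine receptor, was lower in CtslΔTEC cells both before and after stimulation. Unstimulated CtslΔTEC mice 1 to 5 held 12.6, 11.6, 16.2, 11.4 and 12.4 CPM. Control mice 1 to 4 held 20.6, 19.6, 20.2 and 16.9 CPM. The groups did not overlap, although CtslΔTEC mouse 3 came near control mouse 4, which shares its date. The fitted difference was -0.59 ± 0.11 (log2, SE; 1.50-fold lower). Within the date of CtslΔTEC mice 1 and 3 their mean was 0.850 times the 1 control library (mouse 4), and within the date of CtslΔTEC mice 2, 4 and 5 it was 0.586 times the control mean. Stimulated CtslΔTEC mice held 170 and 177 CPM and stimulated controls 280 and 330 CPM, a difference of -0.81 ± 0.15 (log2, SE; 1.76-fold lower). *Adora2a* was higher after stimulation by 3.98 ± 0.13 in control and 3.76 ± 0.12 in CtslΔTEC cells (log2, SE), the steepest increase among the 7 members fitted, in both genotypes. The responses differed by -0.22 ± 0.18, within the error.

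The enzymes that break down adenosine differed little by genotype. *Ada* was at 9.90 ± 0.49 CPM in unstimulated CtslΔTEC (SD, n = 5) and 8.76 ± 1.48 CPM in control cells (SD, n = 4), with overlapping values. Stimulated libraries held 4.51 and 3.67 CPM in CtslΔTEC and 4.23 and 3.38 CPM in control cells, all below every unstimulated library. Its responses were -1.24 ± 0.19 and -1.28 ± 0.18 in control and CtslΔTEC cells (log2, SE). *Pnp* was at 14.9 ± 1.52 and 14.7 ± 0.95 CPM in unstimulated CtslΔTEC and control cells (SD, n = 5 and n = 4). Stimulated libraries held 13.3 and 10.3 CPM in CtslΔTEC and 19.5 and 11.8 CPM in control cells, so the groups overlapped. The *Pnp* response in control cells was 0.06 ± 0.18 and ran from -0.33 without control mouse 5 to 0.39 without control mouse 6. In CtslΔTEC cells it was -0.34 ± 0.18 (log2, SE), from -0.55 to -0.19 over 22 alternatives.

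**Figure D3:**
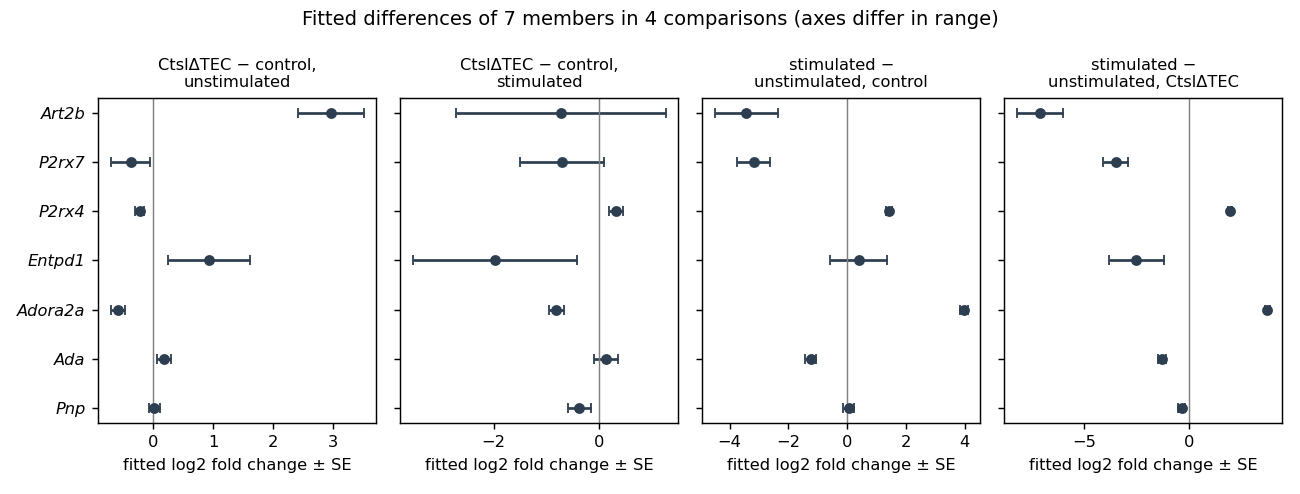
Fitted log2 fold changes with standard errors on the horizontal axis for the 7 members that passed the filter on low counts, in 4 comparisons. *Art2b* stands at 2.98 between unstimulated genotypes and at -0.72 ± 1.99 between stimulated ones, and *P2rx4* and *Adora2a* lie to the right of 0 in both responses.

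Of the 9 members, 7 passed the filter on low counts. Between unstimulated genotypes 1 was past the threshold as higher and 2 as lower, where 6.42% of all genes tested were higher and 8.36% lower. The CPM values of 3 members did not overlap, as held for 13.9% of all genes. Between stimulated genotypes 1 member was lower and none higher, where 10.6% of all genes were lower and 2.77% higher, and 4 members did not overlap, as held for 49.6% of all genes. In the control response 2 were higher and 3 lower, where 32.9% of genes were higher and 34.8% lower. In the CtslΔTEC response 2 were higher and 3 lower, where 32.9% were higher and 38.2% lower. The response of 1 member differed between genotypes, upward, where 1.13% of genes did so upward and 4.88% downward. The unstimulated difference of *P2rx4* was past the threshold in 9 of 21 alternatives and its interaction in 11 of 22, and *Art2b* and *Adora2a* between unstimulated genotypes in 20 of 21 each, the exception being the covariate of Y-linked transcripts, under which none of the 7 was, in a fit that called 430 of 13152 genes, while *Adora2a* stood at -0.66 and *P2rx4* at -0.28. In the control response *Art2b* was past it in 20 of 21, the exception being the fit without stimulated control mouse 6. In the CtslΔTEC response *Entpd1* was past it in 9 of 21 and *Pnp* in 10 of 22, though neither was in the reported fit. Between unstimulated genotypes *P2rx7* was not past the threshold in the reported fit. It was past it in 2 of 21 alternatives, the replicate block and the fit without CtslΔTEC mice 2 and 5. Nothing is read from these shares, because the members were chosen on the same measurements. The comparisons share libraries, so that a high unstimulated *Art2b* level in CtslΔTEC mice enters both its genotype difference and its response.

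Mice with more *Art2b* than others of their genotype also had more of several other members. After subtracting the genotype mean of the log2 CPM, *Art2b* correlated across the 9 unstimulated libraries with *Pnp* (r = 0.95), *P2rx7* (r = 0.92) and *Entpd1* (r = 0.88). The values within each genotype were 0.97 in CtslΔTEC and 0.81 in control mice for *P2rx7*, and 0.95 and 0.96 for *Pnp*. For *Ada* the pooled value was -0.55 and for *P2rx4* -0.36. *Adora2a* stood at -0.10, with -0.32 and 0.56 in the 2 genotypes. The summed DP markers had r = -0.62 with *Art2b* on the same scale and the mature CD4 markers r = 0.36. Myeloid markers moved with *Art2b* as well. Their sum had r = 0.68 over the 9 libraries, 0.98 in CtslΔTEC and 0.51 in control mice, and 5 of the 6 genes had positive values, up to 0.88 for *Lyz2*, while *Cd68* was at -0.51. *C1qa* held 6, 41, 9, 30 and 86 counts in CtslΔTEC mice 1 to 5 and 14, 17, 3 and 8 counts in control mice 1 to 4, highest in mice 2 and 5 and in control mouse 2. The part of myeloid transcripts in these relations was not tested. The 9 points include CtslΔTEC mice 2 and 5 of 1 date, and the values carry no test.

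**Figure D4:**
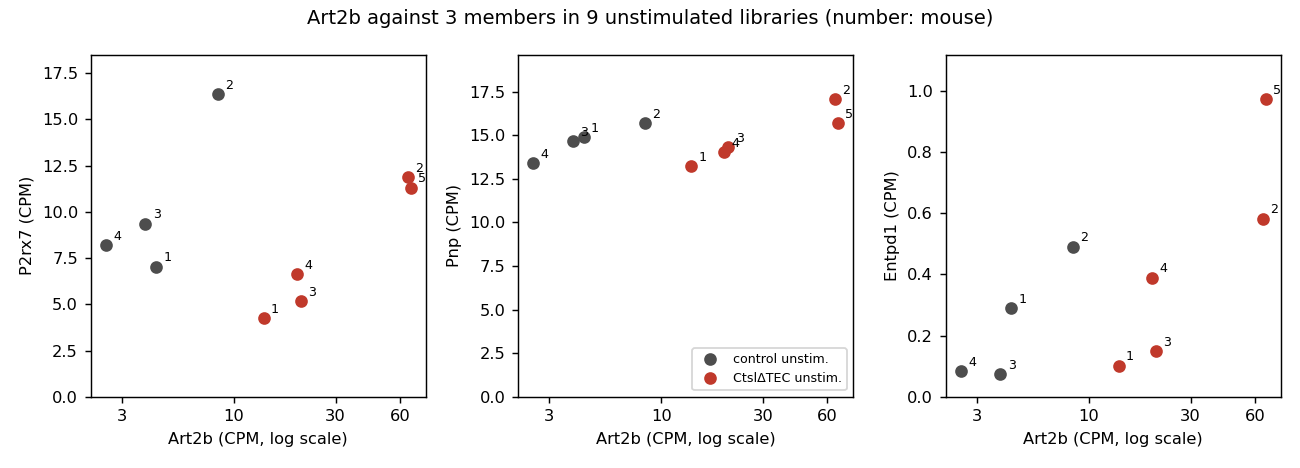
*Art2b* CPM on a log axis against CPM of *P2rx7*, *Pnp* and *Entpd1* in the 9 unstimulated libraries, with mouse numbers beside the points. CtslΔTEC mice 2 and 5 and control mouse 2 lie to the right within their genotypes, with *P2rx7* at 11.9, 11.3 and 16.4 CPM.

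Without centring on genotype, the genes whose log2 CPM was most like *Art2b* over the 13 libraries, among 10088 genes, were *BC025920* (Pearson r = 0.966), *Mctp2* (0.964), *Wdr5b* (0.959), *Rabgap1l* (0.959) and *Perm1* (0.957). The most opposed were *CAAA01147332.1* (-0.970), *Prpf40b* (-0.966) and *Amz1* (-0.963). Over the 9 unstimulated libraries and 10176 genes the nearest were *C2cd5* (0.994), *Zfp937* (0.993), *Ccdc167* (0.984), *Chrm3* (0.982) and *F2r* (0.974), and the most opposed *E2f2* (-0.990), *Epb41l1* (-0.980) and *Hif3a* (-0.980). Between the 2 sets of libraries none of the 16 genes recurred. *P2rx7* had r = 0.847 over 13 libraries and 0.123 over 9, since the first value includes the common drop of both genes after stimulation. These values are descriptive, and all 4 stimulated libraries carry 1 date.

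The wider pathway, a list of 96 genes of which 95 are in the files, was tested with edgeR's quasi-likelihood fit across all genes, at a Benjamini-Hochberg adjusted p under 0.1. The list was drawn up with earlier results of these libraries known. Between unstimulated genotypes 12 of 71 tested genes passed the threshold, 3 higher and 9 lower in CtslΔTEC cells, or 16.9%, where 14.8% of all genes tested passed. The list median was -0.06 and that of all genes 0.01 (log2). The 2 strongest decreases were in *Nmnat2*, an NAD synthesis enzyme, and *P2ry1*, an ADP receptor. *Nmnat2* held 11, 8, 9, 1 and 3 counts in CtslΔTEC mice 1 to 5 against 64, 32, 32 and 43 in control mice 1 to 4, and fell by 2.83 ± 0.44 on the log2 scale (SE, edgeR adjusted p = 0.00165). *P2ry1* held 9, 5, 12, 11 and 12 against 70, 63, 44 and 78 counts and fell by 2.80 ± 0.27 (SE, edgeR adjusted p = 6.4e-05). Of 9 listed P2Y receptor genes 5 were tested and 3 were lower, where 8.36% of all genes tested were, the others being *P2ry14*, the UDP-glucose receptor, at -2.22 ± 0.22 and *P2ry10* at -0.53 ± 0.15 (log2, SE, edgeR adjusted p = 7.9e-05 and 0.0386).

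Of the genes that recycle or break down purines, 3 of 17 tested fell in unstimulated CtslΔTEC cells, or 17.6%, where 8.36% of all genes tested fell. *Adk*, which converts adenosine to AMP, was at 13.8, 10.5, 13.4, 13.3 and 10.97 CPM in CtslΔTEC mice 1 to 5 against 25.998, 25.02, 23.5 and 25.07 CPM in controls (log2 difference -1.003 ± 0.10, SE, edgeR adjusted p = 5.6e-05). The AMP deaminase gene *Ampd3* differed by -0.75 ± 0.11 and *Ahcy*, the S-adenosylhomocysteine hydrolase gene, by -0.34 ± 0.07 (log2, SE). *Atic*, of de novo purine synthesis, and *Slc17a9*, which encodes the vesicular nucleotide transporter, differed by -0.24 ± 0.06 and -0.30 ± 0.08. Higher in CtslΔTEC cells were *Art4*, another ART family gene (0.77 ± 0.12, edgeR adjusted p = 0.00196), the acid phosphatase gene *Acpp* (0.73 ± 0.24) and the nucleoside transporter gene *Slc28a2* (0.34 ± 0.10), the last pair with overlapping values. With Y-linked transcripts as a covariate 5 of the 12 passed the threshold, *Nmnat2*, *P2ry1*, *P2ry14*, *Adk* and *Ampd3*, in a fit that called 430 genes in all against 1943, and the others kept their direction.

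Between stimulated genotypes 16 of 75 tested genes passed the threshold, 3 higher and 13 lower, or 21.3%, where 13.3% of all genes passed. The same stimulated groups were also apart in summed activation markers (11082 to 11621 against 8662 to 9896 CPM), DP markers (54.2 to 54.7 against 15.7 to 18.1 CPM) and mature CD4 markers (242 to 323 against 388 to 635 CPM). Among the activation markers *Il2* went the other way, at 3.07 and 5.75 CPM in CtslΔTEC against 54.4 and 50.7 CPM in control mice. *Egr2* and *Tnfrsf9* overlapped. Regulatory T markers (840 to 869 against 790 to 813 CPM) and thymic epithelial markers (13.3 to 15.1 against 10.85 to 12.9 CPM) were apart as well. With 2 mice against 2, 49.6% of all genes did not overlap. The part of these marker levels was not tested. *Adk* was again lower, at 51.7 and 46.9 CPM in CtslΔTEC against 108 and 89.98 CPM in control mice (log2 difference -1.01 ± 0.14, SE, edgeR adjusted p = 0.000604). *Ampd3* (-1.85 ± 0.33), *Nmnat2* (-1.83 ± 0.55), *P2ry14* (-1.42 ± 0.36) and *Ahcy* (-0.49 ± 0.13) were also lower in stimulated CtslΔTEC cells. Several of the 13 decreases rest on few counts. In CtslΔTEC against control libraries *Ampd3* held 7 to 8 against 15 to 53 counts and *Nmnat2* 21 to 24 against 60 to 114. *P2ry14* held 14 each against 19 to 80 and *Nmrk1* 16 to 17 against 16 to 67. The other genes of NAD metabolism that were lower were *Nmrk1* (-0.94 ± 0.28), *Nadk2* (-0.47 ± 0.14), *Nadk* (-0.32 ± 0.11) and *Adprh*, which removes ADP-ribose from arginine (-0.41 ± 0.13). The nucleotidase genes *Entpd5* (-0.80 ± 0.14) and *Entpd7* (-1.09 ± 0.28), the deoxycytidine kinase gene *Dck* (-1.31 ± 0.33) and the equilibrative transporter gene *Slc29a2* (-0.67 ± 0.21) made up the rest. Higher were the xanthine oxidase gene *Xdh* (0.68 ± 0.17), the transporter gene *Slc29a1* (0.66 ± 0.12) and *Adam10*, a sheddase (0.52 ± 0.14). Without CtslΔTEC mouse 6 the count was 6 and without control mouse 5, the shallowest library, it was 9.

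**Figure D5:**
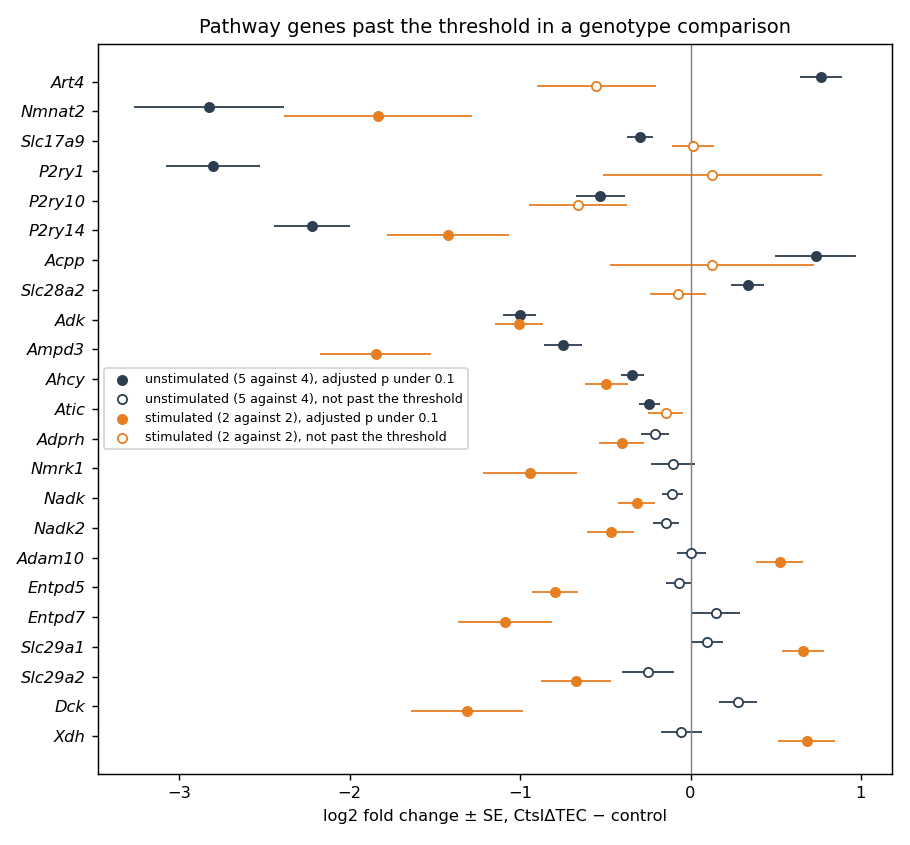
Log2 fold changes of CtslΔTEC minus control cells with standard errors for the pathway genes past the threshold in either genotype comparison, filled where past it. *Adk* lies at -1.003 and -1.01, *P2ry1* is at -2.80 in unstimulated cells only, and *Dck*, *Xdh* and *Slc29a1* pass in stimulated cells only. Whether the comparisons differ is tested by the interaction.

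After stimulation 56 of 75 tested genes of the list were past the threshold in control cells (31 higher, 25 lower), or 74.7%, where 67.7% of all genes were. In CtslΔTEC cells it was 62 of 75 (34 higher, 28 lower), or 82.7%, where 71.2% of all genes were. De novo purine synthesis was mostly higher, with 10 of 13 genes higher and *Prps2* lower in each genotype, where 32.9% of all genes were higher in each. By smallest p, the genes that rose in control cells were *Pfas* of de novo synthesis (2.40 ± 0.11), *Slc29a1* (1.91 ± 0.10) and *Adk* (1.99 ± 0.12), and those that fell were *Entpd5* (-2.54 ± 0.12), *Ampd3* (-3.76 ± 0.21) and *Ampd1* (-5.15 ± 0.32; log2, SE). In CtslΔTEC cells they were *Slc29a1* (2.47 ± 0.10), *Pfas* (2.44 ± 0.10) and *Xdh* (2.81 ± 0.13), and *Entpd5* (-3.27 ± 0.13), *Art4* (-5.15 ± 0.26) and *Ampd3* (-4.86 ± 0.25). *Art4*, the ART family gene that was higher in unstimulated CtslΔTEC cells, went from 1064 to 1963 counts per library to 9 and 25 counts after stimulation.

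The response to stimulation differed between genotypes for 7 of 75 tested genes, or 9.33%, where 6.01% of all genes differed. It was more negative in CtslΔTEC cells for *Dck* (-1.59 ± 0.38), *Art4* (-1.32 ± 0.37), *Entpd7* (-1.23 ± 0.31) and *Entpd5* (-0.73 ± 0.16), and more positive for *P2ry1* (2.93 ± 0.73), *Xdh* (0.74 ± 0.20) and *Slc29a1* (0.56 ± 0.15; log2, SE, edgeR adjusted p between 0.0225 and 0.0693). *P2ry1* was already low in unstimulated CtslΔTEC cells and held 5 and 4 counts after stimulation, against 1 and 10 in controls. Without CtslΔTEC mouse 6 no gene of the list passed in edgeR, and without control mice 5 and 6 in turn 3 and 4 did.

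RefSeq windows of GRCm38.p6, from 250 bases before to 50 after an annotated gene start, were found for 8 members in 10 windows. Because *Art2b* and *P2rx7* were both far lower after stimulation, their windows are printed, with matches to the AP-1 motif TGANTCA on either strand in capitals. The window of *Art2b* is chr7:101581112-101581411 on the minus strand. It is anchored at the start codon, where Art2b-201 is annotated to begin, whereas Art2b-202 begins at position 101585600, so the window lies inside that transcript and is not shown to be a promoter. No window at the start of Art2b-202 was searched. The window of the upstream *P2rx7* start is chr5:122643677-122643976 on the plus strand.
Art2b: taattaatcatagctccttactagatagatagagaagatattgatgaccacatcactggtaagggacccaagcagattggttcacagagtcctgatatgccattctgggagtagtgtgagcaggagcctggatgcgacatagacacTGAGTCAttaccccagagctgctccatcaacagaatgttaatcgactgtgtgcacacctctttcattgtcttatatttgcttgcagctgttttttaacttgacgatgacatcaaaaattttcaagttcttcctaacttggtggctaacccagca
P2rx7: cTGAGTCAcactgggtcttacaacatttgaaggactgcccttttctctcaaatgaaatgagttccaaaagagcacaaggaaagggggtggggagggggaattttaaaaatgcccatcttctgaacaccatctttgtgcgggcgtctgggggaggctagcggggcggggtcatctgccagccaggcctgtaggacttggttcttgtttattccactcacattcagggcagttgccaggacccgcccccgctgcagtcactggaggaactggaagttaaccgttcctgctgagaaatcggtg
Each window holds 1 match, and 7.81% of 32851 windows hold at least 1. None of the other 8 windows held it, and *Adora2a* has no window in the table. The cyclic AMP response element TGACGTCA and the NR4A motif AAAGGTCA were in none of the 10 windows (1.79% and 1.51% of all). Matches to GGAAA (NFAT; 61.3% of all windows), CACCC (KLF; 57.5%), CANNTG (E-box; 72.3%) and CCGGAA (ETS; 14.9%) numbered 0, 0, 1 and 0 in the *Art2b* window and 1, 1, 4 and 0 in this *P2rx7* window, where motifs may overlap. The matches describe letters in a window and say nothing of binding.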

How the data were processed

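RNA was sequenced from 13 libraries, each from 1 mouse. The authors quantified reads with kallisto 0.48 and deposited estimated counts, effective lengths and TPM for 117497 transcripts. The deposited TPM values are the estimated counts scaled by effective length within a library. Labels name polyA RNA, whereas the study's methods describe depletion of ribosomal RNA. Transcripts were paired with genes through GENCODE M21, which matched 116397 of them, and the 1100 without a gene held at most 0.461% of counts. Counts were summed per gene, rounded and tested with edgeR 4.0.16 in R 4.3.3 (TMM, filterByExpr, quasi-likelihood F test, Benjamini-Hochberg adjustment over all genes tested, threshold 0.1). The genotypes were compared in the 9 unstimulated libraries, and all other contrasts came from a model of 4 groups over 13 libraries, in which groups of 2 mice share the spread. The SE given with a fitted difference is the size of that difference divided by the square root of its F statistic. Transcript shares of TPM were compared by two-sided exact permutation test for transcripts with a mean share between 5% and 95%. Likeness to *Art2b* was Pearson's r of log2 CPM (prior count 2). The members and lists were chosen with earlier results of these data known. All 9 members are named, with each listed gene past the threshold in a genotype comparison or the interaction and at most 3 per direction in the responses. DESeq2 1.42.0, other scalings, filters and covariates, and leaving out each mouse were alternatives. The fits were tested on simulated data. Poisson intervals are exact at 95% and cover counting error only.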

Additional observations from a re-analysis of the deposited data

Results flagged for a closer look

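By the interaction term of the edgeR fit over 13 libraries, the response to stimulation differed between CtslΔTEC and control cells for 6.01% of all genes tested. Among the members this was *P2rx4*, with a difference of 0.54 on the log2 scale, a description only since the members were chosen on measured values, and past the threshold in 11 of 22 alternatives. Among 75 listed pathway genes tested 7 differed (9.33%). The response was more positive in CtslΔTEC than in control cells by 2.93 for *P2ry1*, 0.74 for *Xdh* and 0.56 for *Slc29a1*. The differences were -1.59 for *Dck*, -1.32 for *Art4*, -1.23 for *Entpd7* and -0.73 for *Entpd5*. Mean *P2ry1* was near the floor in CtslΔTEC cells before and after stimulation (0.290 and 0.352 CPM). In control cells it fell from 2.01 to 0.260 CPM. Each value rests on 2 stimulated mice per genotype, and stimulation, date and culture cannot be told apart.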

How the results depend on the processing

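Of 110 alternative counts of pathway genes past the threshold, 101 were within 1.5 times the reported count. For the unstimulated genotypes the count was 12, and it was 5 with Y-linked transcripts as a covariate and 10 to 17 when 1 mouse was left out. For the stimulated genotypes it was 16, 9 in the 4 stimulated libraries alone, and 6 to 18 when 1 mouse was left out. It was 6 without CtslΔTEC mouse 6 and 9 without control mouse 5. For the difference between responses it was 7, 4 at an adjusted p under 0.05, 4 with the Y-linked covariate, and 0 to 9 when 1 mouse was left out, with 0, 3 and 4 without CtslΔTEC mouse 6, control mouse 5 and control mouse 6. The cause was not tested. The replicate block gave 10 genes between unstimulated genotypes, with *Art2b* at 2.51 and *P2rx7* at -0.58 on the log2 scale. Deviations of mice with equal numbers correlated at -0.14, 0.30, -0.07 and -0.15 for numbers 1 to 4. The mice of number 2 also share a date, and those of numbers 1, 3 and 4 do not. Whether equal numbers mark paired mice was not tested. Over 21 alternatives the unstimulated difference ran from 1.93 to 3.39 for *Art2b*, from -0.77 to -0.53 for *Adora2a* and from -0.93 to -0.06 for *P2rx7*. Groups of 2 stimulated mice and counts of 1 to 28 for *Art2b* and *P2rx7* there limit these comparisons.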
